A study of Mus musculus with 2 samples.

Results

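The V segments of the T cell receptor genes were read from single hepatic CD45+ cells. A row of the filtered count table was taken as a member when its symbol began with Trav, Trbv, Trdv, Trgv or Tcrg-V, which gave 26 of 13528 genes, namely 3 Trav, 17 Trbv, 2 Trdv and 4 γ chain rows (Tcrg-V1, Tcrg-V4, Tcrg-V6 and Trgv2). The cells were hepatic leukocytes of C57BL/6 mice aged 10 weeks according to the sample labels. TG cells came from dnTGFβRII mice, a model of primary biliary cholangitis. Their transgene, driven from the Cd4 promoter, encodes a human TGFBR2 chain that acts as a dominant negative. They were captured in 1 pool with cells of IFN-γ ARE-Del-/- mice. WT cells came from wild type mice and were captured in the other pool with cells of p40-/-IL-2Rα-/- mice. Each genotype therefore rested on 1 capture library, genotype and library cannot be told apart, and no test between TG and WT was possible. The intervals given below are 95% intervals of counting error only, and UMIs (unique molecular identifiers) of 1 cell are not independent because they come from few receptors.

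A T cell receptor chain is made by joining 1 V segment, for the β and δ chains a D segment, and 1 J segment in front of a constant region. The V segment forms much of the antigen binding surface, and its usage differs between lineages of T cells. Conventional CD4 and CD8 T cells carry diverse αβ receptors. Invariant NKT cells, which are frequent in mouse liver and see lipids on CD1d, join Trav11 to Traj18 in the α chain and pair it with a few β segments, chiefly of the Trbv13 family (Vβ8), Trbv29 (Vβ7) and Trbv1 (Vβ2). γδ T cells use the γ and δ chains. Antibodies to Vβ5.1 and Vβ5.2 recognise the products of Trbv12-2 and Trbv12-1, and an antibody to Vα2 recognises those of the Trav14 family, so that both could be set beside the transcripts of the same cells.

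Several members are close copies, which bears on how far their counts can be separated. The last 60 bases of the segments on which the results turn are printed here 5′ to 3′ on the coding strand, from the GRCm38 (mm10) annotation and genome, with capitals at the positions that differ within a family. Each stretch lies at the 3′ end of the V exon, the part that joins to D or J. The β segments lie on chromosome 6 and the γ segments on chromosome 13.
Trbv12-1 at chr6:41114008-41114067, plus strand: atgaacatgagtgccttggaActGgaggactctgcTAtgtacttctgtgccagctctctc
Trbv12-2 at chr6:41119305-41119364, plus strand: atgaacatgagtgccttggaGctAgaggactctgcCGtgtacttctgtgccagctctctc
Trbv13-1 at chr6:41116409-41116468, plus strand: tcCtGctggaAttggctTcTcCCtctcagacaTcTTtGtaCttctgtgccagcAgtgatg
Trbv13-2 at chr6:41121773-41121832, plus strand: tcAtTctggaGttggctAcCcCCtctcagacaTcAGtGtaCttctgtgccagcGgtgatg
Trbv13-3 at chr6:41130526-41130585, plus strand: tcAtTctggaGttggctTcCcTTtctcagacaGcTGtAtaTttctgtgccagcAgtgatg
Trgv2 at chr13:19336573-19336632, minus strand: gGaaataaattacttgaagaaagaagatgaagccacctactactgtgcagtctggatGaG
Tcrg-V1 at chr13:19340395-19340454, plus strand: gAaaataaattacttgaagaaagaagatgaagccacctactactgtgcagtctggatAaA
Trbv12-1 and Trbv12-2 differed at 4 of these 60 bases and were identical at 88.3% of 385 aligned bases. The 3 Trbv13 segments were identical in pairs at 86.1% to 90.6% of their aligned bases. Trgv2 and Tcrg-V1 differed at only 3 of the 60 bases and were identical at 95.2% of 374 bases, so reads of these segments may have been split or misassigned between them, and their separate counts are uncertain.

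The V transcripts were sparse. The 4647 TG cells held 18498477 UMIs with a median of 3298 per cell, of which 1856 (0.01003%) fell on V rows. The 7282 WT cells held 22216379 UMIs with a median of 2653.5 per cell, of which 1565 (0.00704%) fell on V rows. TG and WT cells carried 956 and 625 Trbv UMIs, 796 and 796 γ V UMIs, 44 and 132 Trdv UMIs, and 60 and 12 Trav UMIs in the filtered table. Of the 11929 cells, 72 carried 1 of the 36 cell indices that were found in both genotypes. A V transcript was thus seen in a minority of T cells, and a cell without a V UMI is not a cell without the chain. Whether a V transcript was joined to a J segment was not tested.

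The class names of the cell table were checked against receptor and lineage genes. Cd3e, a subunit of the CD3 complex, had a UMI in 99.3% of TG and 93.8% of WT CD8αα T cells, and Cd8b1, the CD8β chain, in 4.63% and 6.70% of them, against 67.1% and 70.3% of CD8αβ T cells. Trdc, the δ constant region, had a UMI in 20 of 410 TG and 82 of 194 WT CD8αα T cells, so the WT class held many cells with a δ chain transcript. In the NKT class Zbtb16, which encodes the transcription factor PLZF of innate-like T cells, had a UMI in 11.9% of TG and 22.4% of WT cells. Cd4 had one in 75.8% of TG and 30.7% of WT NKT cells. The higher Cd4 share in TG was not particular to this class. It was 28.5% in TG and 2.58% in WT CD8αα, and 39.7% and 13.9% in CD8αβ cells. Cells named NK had 44.1% and 2.76%, and B cells 5.55% and 5.25%. The cells named NK in TG had mixed markers in clusters 3 and 11. There Cd3d, Cd3e or Cd3g had a UMI in 95.1% and 99.4% of cells, and the NK receptor gene Ncr1 in 61.2% and 56.3%. The Cd3 share was 67.6% in WT cluster 3, 30.1% in TG and 21.3% in WT cluster 8. The 3 Cd3 genes were unequal in WT. Over all WT cells named NK, Cd3g had a UMI in 36.7%, Cd3e in 11.7% and Cd3d in 11.2%. The TG values were 66.8%, 79.3% and 61.8%. The Ncr1 share was 85.9% in WT cluster 3, 90.2% in TG and 85.7% in WT cluster 8. The clusters are called by number below.

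Trbv UMIs were found in all αβ classes of both genotypes. In TG they were found in 24.9% of CD8αα (102 of 410), 25% of CD8αβ (255 of 1020), 28.6% of CD4 (68 of 238) and 32.3% of NKT cells (144 of 446). In WT they were found in 10.3% of CD8αα (20 of 194), 12.7% of CD8αβ (104 of 819), 11.6% of CD4 (85 of 734) and 12.9% of NKT cells (287 of 2232). B cells, which make no T cell receptor, were used as the background level. They had a Trbv UMI in 1.27% of TG cells (median 3087 UMIs per cell) and 1.12% of WT cells (2141). Whether these UMIs came from free RNA or from doublets was not tested. Every αβ class lay above the B cell level. Trbv UMIs were not limited to these classes, since they were found in 3 of 17 TG and 11 of 192 WT cells named γδ T and in 84 of 759 TG cells named NK. Detection in TG exceeded that in WT in each αβ class. Among CD8αα cells without a Trdc UMI (the δ constant region), which made up 390 of 410 TG and 112 of 194 WT cells, it was 25.9% (21.6 to 30.5) in TG and 15.2% (9.10 to 23.2) in WT, intervals that overlapped. The cells were also deeper in TG, with a median of 3168.5 to 4557 UMIs per cell over these classes against 2437.5 to 2996 in WT. When every cell was thinned to 1000 UMIs the shares were 9.73% and 3.92% in CD8αα, 6.41% and 4.04% in CD8αβ, 9.45% and 5.104% in CD4, and 10.8% and 4.72% in NKT cells of TG and WT.

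**Figure D1:**
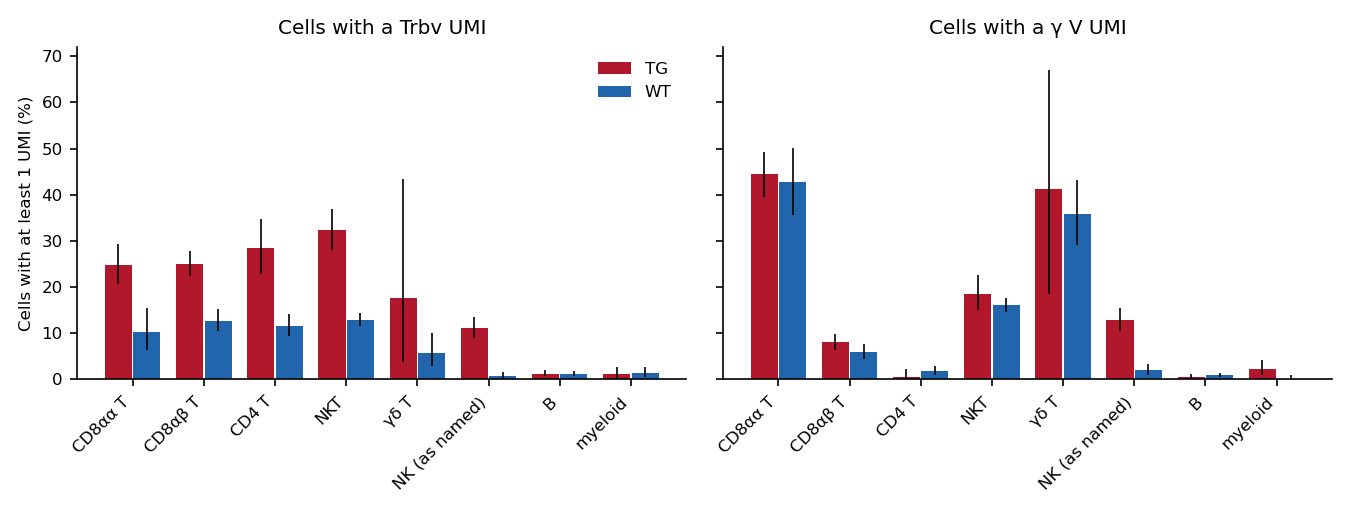
Share of cells with at least 1 Trbv UMI (left) or at least 1 γ V UMI (right) in each named class, as counted and not thinned; bars are shares in percent and lines are 95% exact intervals. Trbv detection was 24.9% to 32.3% in the TG and 10.3% to 12.9% in the WT αβ classes, and γ V detection was highest in CD8αα and γδ T cells.

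NKT cells were rich in the β segments known to pair with the invariant α chain. Trbv13-2 (Vβ8.2) led in both genotypes, with 51 of the 215 Trbv UMIs of TG cells (23.7%, 18.2 to 30.0) and 80 of the 328 of WT cells (24.4%, 19.8 to 29.4). Trbv29 (Vβ7) held 29 UMIs in TG and 52 in WT, and Trbv12-2 held 25 and 68. The 5 segments known as partners of the invariant α chain, Trbv13-1, Trbv13-2, Trbv13-3, Trbv29 and Trbv1, together took 52.1% of Trbv UMIs in TG NKT cells (112 of 215, 45.2 to 58.9) and 63.1% in WT NKT cells (207 of 328, 57.6 to 68.3). In the other αβ classes the same 5 segments took 23.8% to 35.4%, namely 51 of 144 UMIs in TG and 5 of 21 in WT CD8αα cells, 110 of 372 and 39 of 123 in CD8αβ cells, and 25 of 89 and 24 of 100 in CD4 cells. The lower bounds of both NKT intervals lay above the upper bounds of the other classes with the exception of the 21 UMIs of WT CD8αα cells, whose interval ran to 47.2%. The Trbv13 family alone took 33.5% and 36.3% of Trbv UMIs in TG and WT NKT cells, against 9.52% to 21.3% in the other αβ classes.

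To compare genotypes, each cell was counted once, by the Trbv segment with most UMIs in it, and cells with a tie were left out. Within NKT cells the interval of the difference excluded 0 for 4 of 17 segments. Trbv12-2 was assigned to 12.3% of TG (17 of 138) and 21.3% of WT cells (59 of 277), a difference of -8.98 points (-15.8 to -1.105). Trbv31 was assigned to 10 TG and 2 WT cells, a difference of 6.52 points (2.76 to 12.1), Trbv12-1 to 7 and 3 cells (3.99 points, 0.682 to 9.07) and Trbv16 to 6 and 3 cells (3.26 points, 0.152 to 8.13). Trbv1, a partner segment, was assigned to 8 TG and 31 WT cells, a difference of -5.39 points whose interval reached 0.730. These intervals, and those of the classes below, are not adjusted for the 84 differences computed. Intervals at 95% are set so that a few of many exclude 0 by counting error alone, and 1 of 17 segments did so in CD8αα and in CD4 cells. The unit was the cell within 1 library per genotype, so an interval that excluded 0 is a description and no test between TG and WT.

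In CD8αβ T cells no segment dominated in TG. Trbv12-2 (Vβ5.1) had 42 of 372 Trbv UMIs in TG (11.3%, 8.26 to 15.0), followed by Trbv16 and Trbv2 with 34 each. In WT Trbv12-2 had 27 of 123 UMIs (22.0%, 15.0 to 30.3), followed by Trbv13-2 with 12 and Trbv19 and Trbv29 with 11 each. By cells, Trbv12-2 was assigned to 26 of 248 TG and 22 of 103 WT cells, a difference of -10.9 points (-20.3 to -2.75). The class lay in different clusters in each genotype, with 363 of 819 WT and 145 of 1020 TG cells in cluster 4 and 73 and 249 in cluster 12. Within cluster 4 the TG share of Trbv12-2 was 6 of 42 (14.3%, 5.43 to 28.5) and the WT share 10 of 36 (27.8%, 14.2 to 45.2), with overlapping intervals. It led the WT cells in cluster 4 (10 of 36), cluster 7 (5 of 22) and cluster 13 (4 of 15), whereas cluster 23 was led by Trbv1 and Trbv15 (3 each of 17) and cluster 12 by Trbv12-1, Trbv13-2 and Trbv29 (2 each of 12). In TG the leading segment varied between clusters of the class, with Trbv29 in cluster 4 (7 of 42), Trbv3 in cluster 7 (13 of 94), Trbv15 and Trbv16 in cluster 12 (5 each of 33), Trbv16 in cluster 13 (8 of 45) and Trbv17 in cluster 18 (5 of 30). The intervals of the leading segments of these TG clusters overlapped, so an order among them was not detectable at this depth.

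The other differences in CD8αβ cells were smaller. The intervals of 3 of 17 segments excluded 0, and beside Trbv12-2 these were Trbv20 with 4 TG and 6 WT cells (-4.21 points, -10.6 to -0.233) and Trbv14 with 11 TG and 0 WT cells (4.43 points, 0.350 to 7.77). The Trbv14 value is limited by the filtered table, which held 0 for all WT cells where the library file held 10 UMIs in 8 of them. Trbv19 was assigned to 4.44% of TG and 9.71% of WT cells (-5.27 points, -12.8 to 0.205), and Trbv12-1 (Vβ5.2), the near copy of Trbv12-2, to 20 TG and 3 WT cells (5.15 points, -0.837 to 9.64).

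In CD8αα T cells of TG the 144 Trbv UMIs were led by Trbv13-2 and Trbv3 with 23 each, Trbv12-2 with 22 and Trbv16 with 20. The WT class gave only 21 Trbv UMIs in 20 cells, with 6 on Trbv12-2 and 3 each on Trbv3 and Trbv20. Trbv16 (Vβ11) took 13.9% of the UMIs of TG cells (8.69 to 20.6) and 1 of the 21 of WT cells (4.76%, 0.120 to 23.8), and these intervals overlapped widely. Of the 20 TG Trbv16 UMIs, 4 lay in 1 cell that also had a Trdc UMI and 16 in cells without one. In the other TG αβ classes the Trbv16 share was 9.14% (CD8αβ), 3.37% (CD4) and 2.79% (NKT). In TG cluster 3, whose cells are named NK, Trbv16 had 8 of 59 Trbv UMIs. By cells the interval of the difference excluded 0 for 1 of 17 segments, Trbv20, which was assigned to 0 of 94 TG and 3 of 19 WT cells (-15.8 points, -37.6 to -4.80).

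In CD4 T cells Trbv2 (Vβ4) led by UMIs in both genotypes, and had 17 of the 89 Trbv UMIs of TG cells (19.1%, 11.5 to 28.8) and 15 of the 100 of WT cells (8.65% to 23.5%). In TG the 17 Trbv2 UMIs lay in 9 cells with up to 5 in 1 cell, and Trbv13-2 and Trbv19 followed with 14 and 13. By cells Trbv19 (Vβ6) led in TG with 12 of 66 assigned cells, and Trbv2 led in WT with 13 of 83. By UMIs Trbv12-2 and Trbv3 followed Trbv2 in WT with 12 each. The interval of the difference excluded 0 for 1 of 17 segments, Trbv19, assigned to 12 of 66 TG and 6 of 83 WT cells (10.95 points, 0.260 to 22.6), and 9 of these TG cells were in cluster 9. The CD4 class was spread differently over clusters in each genotype, with 58 TG and 397 WT cells in cluster 6 and 132 and 272 in cluster 9. Trbv3 was assigned to 3 TG and 11 WT cells (-8.71 points, -18.1 to 1.099).

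**Figure D2:**
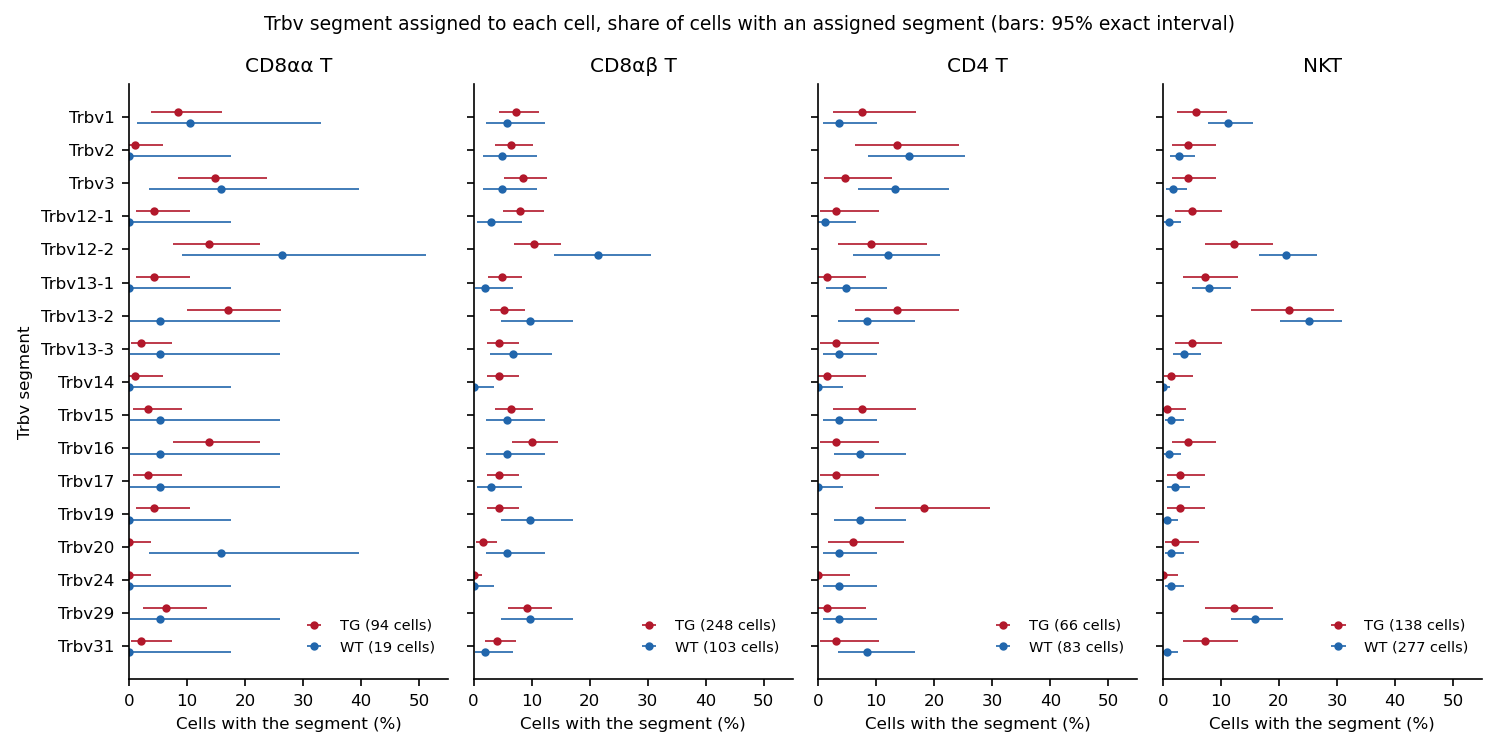
Share of cells assigned to each of the 17 Trbv segments (percent of cells with an assigned segment) in 4 αβ T cell classes; points are shares of TG and WT cells and lines are 95% exact intervals. Trbv13-2, Trbv12-2 and Trbv29 stood above the other segments in WT NKT cells, and Trbv12-2 was assigned to 21.4% of WT and 10.5% of TG CD8αβ cells; the WT points of Trbv14 are 0 in the filtered table.

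The evenness of usage was summarised by the inverse Simpson index over cells, which is the number of equally used segments that would give the same evenness. It was 9.15 in TG and 6.81 in WT CD8αα cells (94 and 19 cells), 13.9 and 10.1 in CD8αβ cells (248 and 103), 9.90 and 10.9 in CD4 cells (66 and 83), and 9.55 and 6.36 in NKT cells (138 and 277). Because the index grows with the number of cells, each class was brought to 19 cells by rarefaction. The indices were then 6.80 and 6.81 in CD8αα, 8.54 and 7.23 in CD8αβ, 7.40 and 7.76 in CD4, and 6.87 and 5.03 in NKT cells of TG and WT. The WT indices could not count Trbv14, which the filtered table held at 0 in WT. The library file held 10 Trbv14 UMIs in 8 WT cells, and their effect on the indices was not tested. NKT cells of WT had the lowest index of these classes at equal numbers. Among cells with at least 2 Trbv UMIs the CD4 index was 3.76 in TG (13 cells) and 8.07 in WT (11 cells). The leading segment of each of the 4 classes was assigned to at most 26.3% of its cells with an assigned segment.

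A higher share of 1 segment was found in cluster 3, whose cells are named NK. In TG this cluster had 263 cells, of which 82.9% had a Trac UMI (the α constant region) and 61.2% an Ncr1 UMI, the gene of the NK receptor NKp46. The median TCRβ antibody level, the natural log of 1 plus the count over its geometric mean in the cell, was 1.54 in TG cluster 3, against 0.714 in TG B cells and 1.93 in TG NKT cells. Trbv UMIs were found in 41 of these cells (15.6%), and Trbv13-3 (Vβ8.1) was assigned to 18 of the 38 cells with an assigned segment (47.4%, 31.0 to 64.2). Its 22 UMIs lay in 19 cells, with at most 2 in 1 cell, so no single cell carried the result. Trbv12-2 was assigned to 6 and Trbv16 to 5 of the 38 cells.

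Trbv13-3 took a smaller share elsewhere in TG. It was assigned to 4 of 37 cells in TG cluster 11, to 4.44% of TG CD8αβ, 5.07% of TG NKT, 3.03% of TG CD4 and 2.13% of TG CD8αα cells. As a share of all cells it was found in 7.22% of TG cluster 3 (4.41 to 11.1), 1.46% of TG cluster 11 (0.475 to 3.37), 1.79% of TG NKT and 1.27% of TG CD8αβ cells, and in 0.159% of TG B cells (2 of 1261). In WT the same cluster number held 306 cells with 3 Trbv UMIs, none of them Trbv13-3, a Trac UMI in 23.9% and a TCRβ antibody level of 0.777, close to the 0.611 of WT B cells. The TG and WT cells of cluster 3 thus differed in Trac and Trbv detection. Constant β RNA was not absent from WT, since Trbc1 had a UMI in 62.0% of all WT and 56.5% of all TG cells named NK. The 19 Trbv13-3 cells had a UMI of Trac in 16, Trbc2 in 16 and Trbc1 in 15 cells, and their median antibody levels were 3.43 for CD49a, 1.17 for NK1.1 and 2.39 for CD4, against 3.39, 1.16 and 1.93 in the other TG cells of the cluster. Only 3 of the 19 cells had a J segment row with UMIs (Trbj1-4 in 2 and Trbj2-1 in 1), so it cannot be said whether they shared a rearrangement.

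**Figure D3:**
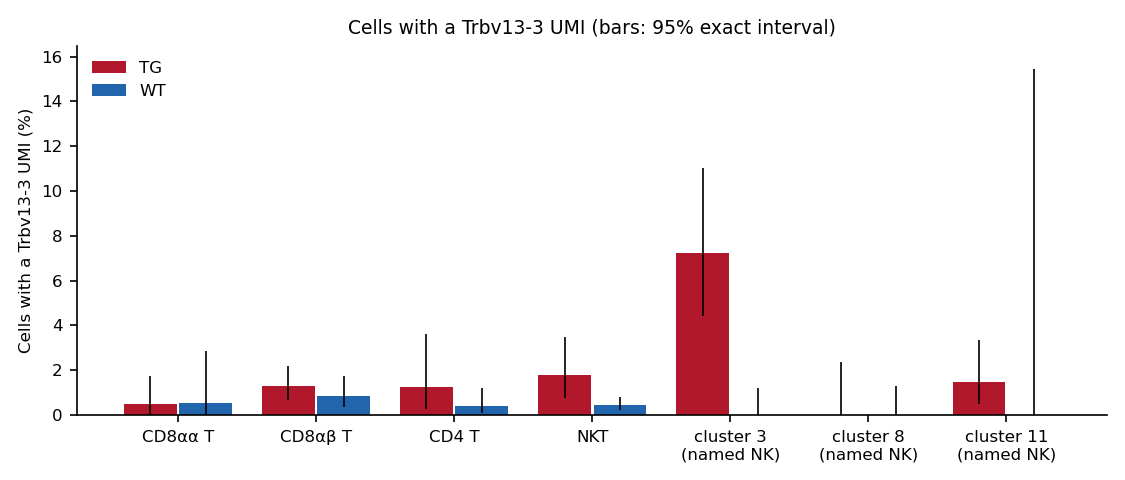
Share of all cells with a Trbv13-3 UMI (percent) in the αβ T cell classes and in the 3 clusters whose cells are named NK; bars are shares and lines are 95% exact intervals. TG cluster 3 stood at 7.22%, above the other TG classes, and WT cluster 11 holds only 22 cells, which gives its long line.

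The 2 other clusters named NK differed from each other. TG cluster 11 (343 cells) had a Trac UMI in 87.8% of cells, a TCRβ antibody level of 1.55 and Trbv UMIs in 38 cells, led by Trbv17 (6 of 37 assigned cells) with Trbv13-2 and Trbv3 at 5 each. TG cluster 8 (153 cells) and WT cluster 8 (287 cells) had Trac UMIs in 33.3% and 17.4% of cells, 7 and 2 Trbv UMIs, and an Eomes UMI, a transcription factor of NK cells, in 64.7% and 72.1%. Trbv detection over all cells named NK was 11.1% in TG and 0.650% in WT. Most TG cells with a Trbv UMI lay in clusters 3 and 11 (41 and 38 cells), while WT had 2 such cells in cluster 3, 2 in cluster 8 and 0 in cluster 11.

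Among γ chain rows Trgv2 led in every class with at least 20 γ V UMIs. In CD8αα T cells γ V UMIs were found in 44.4% of TG (182 of 410) and 42.8% of WT cells (83 of 194), about as often as in cells named γδ T (41.2% of 17 TG and 35.9% of 192 WT cells). Of the cells named γδ T, 7 of 9 TG cells with a Trdc UMI and 0 of 8 without one had a γ V UMI, against 53 of 137 and 16 of 55 in WT. NKT cells had γ V UMIs in 18.6% and 16.1%, CD8αβ cells in 8.04% and 5.86%, CD4 cells in 0.420% and 1.77%, and B cells in 0.634% and 0.884% of TG and WT cells. Trgv2 took 264 of the 318 γ V UMIs of TG CD8αα cells (83.0%, 78.4 to 87.0) and 69 of the 100 of WT CD8αα cells (59.0% to 77.9%), with Tcrg-V1 at 48 and 24. By cells Trgv2 was assigned to 86.5% of TG and 70.5% of WT CD8αα cells (16.0 points, 5.29 to 27.8) and Tcrg-V1 to 9.94% and 24.4% (-14.4 points, -25.6 to -4.62). Since these segments share 95.2% of their bases, the split between them is uncertain.

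The γ V transcripts of CD8αα cells were also found in cells without a UMI of the δ constant region. Among TG CD8αα cells without a Trdc UMI, 170 of 390 (43.6%, 38.6 to 48.7) had a γ V UMI, and 52 of them also had a Trbv UMI. Among WT CD8αα cells without a Trdc UMI the share was 42 of 112 (37.5%, 28.5 to 47.1), and among those with one it was 41 of 82. No Trdv UMI was found in the 410 TG CD8αα cells, which allows a share of cells with such a UMI of up to 0.732% and sets no limit on cells with a δ chain, while 9 of 194 WT cells had one. Trdc itself stood at 95.1 CPM (a gene's UMIs in a class, scaled to one total of UMIs for every class) in TG and 855 CPM in WT CD8αα cells, and the TCRβ antibody level was 1.60 in TG and 1.04 in WT. The WT values of this class thus rest on a mixture in which Trdc cells made up 42.3%.

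The δ segments were read chiefly in γδ T cells and in cells named NK. In WT γδ T cells Trdv4 had 43 of 44 Trdv UMIs, in 27 cells with up to 6 in 1 cell. This share is among the 2 of 6 annotated Trdv genes in the filtered table, which held 132 of the 136 Trdv UMIs of named WT cells. Segments whose symbols name both chains, such as Trav15-1-dv6-1, were counted as Trav. The γ V UMIs of these cells were 65 on Trgv2, 13 on Tcrg-V1, 12 on Tcrg-V6 and 6 on Tcrg-V4. Tcrg-V6, typical of innate γδ T cells that make IL-17, had 17 UMIs in all WT cells, of which 12 lay in this class. In TG the class had 17 cells with 12 γ V UMIs, 10 of them Trgv2, and 4 Trdv4 UMIs in 1 cell, and the filtered table set the 4 Tcrg-V6 UMIs of 2 TG cells to 0. In WT cells named NK, Trdv2-2 had 33 and Trdv4 20 of 53 Trdv UMIs, with Trdv2-2 leading in cluster 8 (22 of 24 assigned cells) and Trdv4 in cluster 3 (16 of 22). In TG cluster 8 the 15 assigned cells were split 9 to Trdv2-2 and 6 to Trdv4. γ V UMIs in WT cluster 3 were rare (12 UMIs), and 11 of them were Tcrg-V1.

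The α chain could be read only thinly. The filtered table kept 3 Trav rows, of which Trav16n had 34 TG and 12 WT UMIs, Trav3-3 had 17 TG UMIs and Trav16 had 9. It held 0 for Trav3-3 and Trav16 in WT, where the library file held 3 and 2 UMIs. In TG CD8αβ cells Trav16n had 15 of 27 Trav UMIs, Trav3-3 8 and Trav16 4. The library files held 78 of 128 annotated Trav genes and gave 150 UMIs in named TG and 132 in named WT cells, spread over 41 and 52 rows. Trav11, the V segment of the invariant NKT receptor, had no row, and its near copies Trav11d and Trav11n had 0 UMIs in named cells. Traj18, the J segment of that receptor, had a UMI in 3 of 446 TG NKT (0.673%) and 16 of 2232 WT NKT cells (0.717%), which was no more than in WT CD4 cells (9 of 734, 1.23%) or WT CD8αβ cells (8 of 819, 0.977%). These transcripts therefore gave no check of the name of the NKT class. Trav1, the segment of MAIT cells, had 1 UMI in named TG and 2 in named WT cells. The Trav15 rows, whose symbols also name a δ segment, had UMIs in WT only, 6 on Trav15-1-dv6-1 and 2 on Trav15-2-dv6-2. The Trav14 family (Vα2) had 7 of the 130 Trav UMIs of TG αβ T cells (5.38%, 2.19 to 10.8) and 8 of the 107 of WT αβ T cells (7.48%, 3.28 to 14.2). The TG share rested on few cells, since it was 2 of 124 UMIs (1.61%) without the 3 cells with most UMIs.

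The Vβ5 antibody gave a protein reading for 2 of the segments. In TG αβ T cells its median level was 1.85 in the 33 cells with a Trbv12-1 UMI, 0.457 in the 78 cells with a Trbv12-2 UMI (quartiles 0.152 and 1.99) and 0.270 in 458 cells with another Trbv segment. In WT the medians were 1.80 in 7 cells, 0.337 in 105 cells (quartiles 0.184 and 0.515) and 0.285 in 384 cells. Levels above 1 were seen in 24 of 33 Trbv12-1 cells in TG and 5 of 7 in WT, in 28 of 78 (35.9%, 25.3 to 47.6) and 11 of 105 (10.5%, 5.35 to 18.0) Trbv12-2 cells, and in 9 of 458 and 7 of 384 other cells. Trbv12-1 transcripts and the antibody thus went together in most cells of both genotypes, and Trbv12-2 transcripts in a minority.

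The part of Trbv12-2 cells with a Vβ5 level above 1 is given by class, each from few cells. It was 17 of 30 in TG (56.7%, 37.4 to 74.5) and 6 of 24 in WT CD8αβ cells (9.77% to 46.7%), and 2 of 21 in TG (9.52%, 1.17 to 30.4) and 2 of 63 in WT NKT cells (3.17%, 0.387 to 11.002). It was 7 of 17 and 1 of 6 in CD8αα cells and 2 of 10 and 2 of 12 in CD4 cells of TG and WT. In NKT cells the median level of Trbv12-2 cells was 0.309 in TG and 0.340 in WT, between the quartiles of cells with other segments (0.171 and 0.426 in TG, 0.144 and 0.443 in WT), while Trbv12-2 ranked among the 3 leading segments there. In the converse direction, of the TG αβ T cells with a Vβ5 level above 1 and an assigned segment, 24 of 60 carried Trbv12-1 and 27 Trbv12-2, and in WT 5 of 22 and 10 of 22. Over all called cells of each library the median Vβ5 counts were 26 and 54.5 in Trbv12-1 cells, 3 and 3 in Trbv12-2 cells, and 2 and 2 in other cells of the TG and WT libraries. The Vα2 antibody had median counts of 6.5 in 18 and 7 in 59 cells with a Trav14 UMI, against 1 and 1 in cells with another Trav segment. Among named cells alone the medians of Trav14 cells were 15 in 5 TG cells and 0 in 12 WT cells, against 1 and 1, so the WT library value came from cells without a genotype name.

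**Figure D4:**
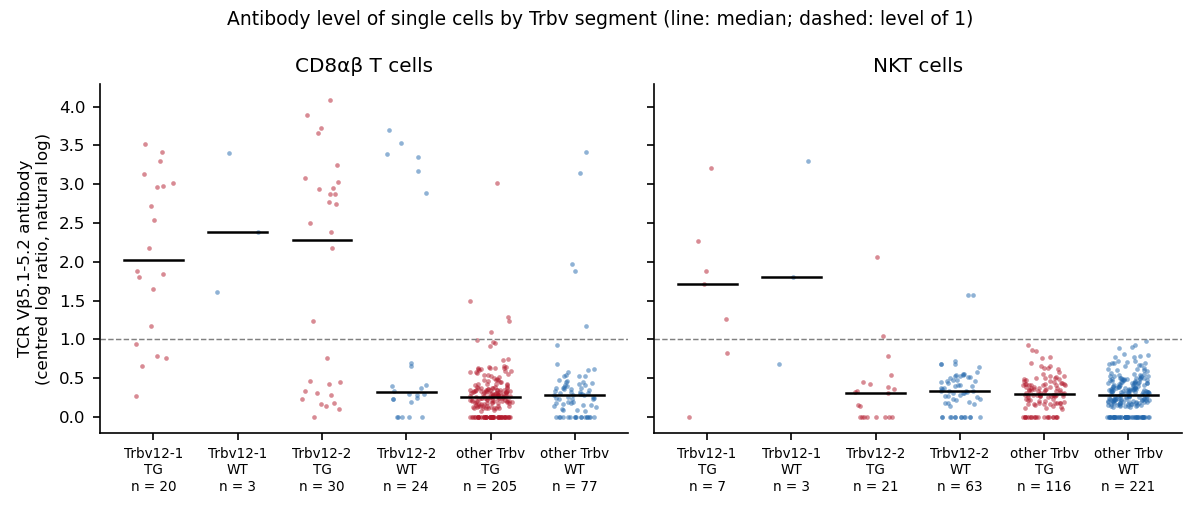
Vβ5.1-5.2 antibody level (centred log ratio, natural log) of single CD8αβ and NKT cells by the Trbv UMI they carry and by genotype; each point is a cell, the black line is the median and the dashed line the level of 1. In CD8αβ cells Trbv12-2 cells fell into a high and a low group (17 of 30 TG and 6 of 24 WT cells above 1), whereas 2 of 21 TG and 2 of 63 WT NKT cells with Trbv12-2 lay above 1.

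The antibodies read every cell, with no need for a V UMI. A Vβ5 level above 1 was found in 12.7% of TG and 3.61% of WT CD8αα cells, a difference of 9.07 points (4.43 to 13.1), and in 12.7% and 11.2% of CD8αβ cells (1.51 points, -1.51 to 4.47). In CD4 cells the shares were 5.04% and 2.45% (2.59 points, 0.0421 to 6.26), in NKT cells 2.91% and 1.52% (1.39 points, 0.0476 to 3.45), and in B cells 0.159% and 0.649%. Above the 99th percentile of the B cells of each genotype the differences were 6.95 points in CD4 and 5.07 points in NKT cells. This cut was a level of 0.729 in TG and 0.831 in WT, so TG cells were counted above a lower level. At a level above 2 the CD8αα shares were 2.68% in TG and 0.515% in WT, a difference of 2.17 points whose interval included 0 (-0.458 to 4.27). The CD8αβ shares were then 9.51% and 8.67%. Antibody counts per cell were fewer in CD8αα cells, with medians of 577.5 in TG and 789 in WT, against 1614.5 and 1598 in CD8αβ cells. Of the CD8αα cells, 20 of 410 in TG and 82 of 194 in WT had a Trdc UMI. A Vα2 level above 1 was most frequent in CD4 cells, at 15.5% of both TG (37 of 238) and WT (114 of 734), a difference of 0.0149 points (-4.91 to 5.71). It was 7.45% and 8.42% in CD8αβ, 3.41% and 1.03% in CD8αα, and 4.04% and 0.493% in NKT cells, where the difference was 3.54 points (2.02 to 5.81). That NKT difference was 1.03 points at a level above 2 (0.348 to 2.51). It was 5.96 points (3.99 to 8.65) above the 99th percentile of B cells, a cut of 0.614 in TG and 0.839 in WT. B cells stood at 0.317% and 0.884%.

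Segments were also found together. Of αβ T cells with a Trbv UMI, 36 of the 569 TG cells (6.33%, 4.47 to 8.65) and 18 of the 496 WT cells (3.63%, 2.16 to 5.67) had UMIs of more than 1 Trbv segment. The most frequent pair was Trbv12-2 with Trbv13-2, in 13 TG cells (of 78 and 84 with each segment) and 5 WT cells (of 105 and 95). These segments are neighbours on chromosome 6 with no other annotated Trbv segment between them, and the same pair led among cells without a genotype name, with 12 cells in the TG and 10 in the WT library. Whether such cells held 2 receptors, 2 cells or 1 transcript read across both segments was not tested.

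The level of Trbv transcripts was higher in TG than in WT in each αβ class. Summed Trbv UMIs reached 109 CPM in TG and 38.2 CPM in WT CD8αα cells (ratio 2.85, 1.79 to 4.74), 70.2 and 40.1 CPM in CD8αβ cells (1.75, 1.42 to 2.16), 105 and 51.4 CPM in CD4 cells (2.05, 1.52 to 2.76) and 122 and 49.7 CPM in NKT cells (2.45, 2.05 to 2.92). The CD8αα ratio includes cells with a Trdc UMI, which were 20 TG and 82 WT cells and held 4 and 3 Trbv UMIs. The CD8αα cells without a Trdc UMI held 140 Trbv UMIs in 390 TG and 18 in 112 WT cells. B cells stood at 4.15 and 4.56 CPM (0.910, 0.463 to 1.78). The 12 Trbj rows, the J segments of the same chain, had ratios of 4.71, 1.94, 3.11 and 4.57 in the 4 classes. The filtered table held 0 for Trbj1-4, Trbj2-2 and Trbj2-5 in WT and for Trbj1-7 in TG, where the library files held 6, 7, 5 and 5 UMIs. From the 14 Trbj rows of the library files the ratios were 4.21, 1.89, 2.49 and 4.11, and from their 28 Trbv rows 2.89, 1.69, 2.17 and 2.43. Trbc1 and Trbc2, the β constant regions that end the same transcripts, had ratios of 1.06, 0.749, 0.894 and 0.968, and Cd3d, Cd3e and Cd3g together 0.968, 0.971, 1.17 and 1.06. The Trbv and Trbj rows thus differed between TG and WT while the constant region of the same chain differed by less than 1.5 times in each class. The 7 Traj rows, J segments of the α chain, had ratios of 7.06 (1.11 to 295) in CD8αα and 0.530 (0.320 to 0.874) in CD8αβ cells. In CD4 cells the Traj ratio was 0.591 (0.263 to 1.21). The CD8αα value rested on 17 TG and 1 WT UMIs. γ V rows had ratios of 1.32, 1.35, 0.121 and 1.15 in CD8αα, CD8αβ, CD4 and NKT cells, the CD4 value resting on 1 TG and 19 WT UMIs. RNA of other cells in the T cells was read from 5 myeloid genes (Lyz2, Csf1r, Adgre1, S100a8 and S100a9, with Adgre1 at 0 in WT CD8αα, TG and WT CD4 and TG NKT cells), whose summed level was higher in TG, at 293 to 444 CPM in the TG and 89.1 to 152 CPM in the WT αβ classes. Of 3 B cell genes, Cd79a, a chain of the B cell receptor complex, stood at 56.6 to 97.5 CPM in the TG and 18.2 to 73.1 CPM in the WT αβ classes. In CD8αβ cells Cd79b, the other chain, was lower in TG (23.4 against 36.2 CPM) and Ms4a1, which encodes CD20, was nearly equal (22.8 and 21.9 CPM). In the other classes Cd79b and Ms4a1 had 1 to 24 UMIs per genotype and higher CPM in TG. The part of either RNA in these ratios was not tested.

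**Figure D5:**
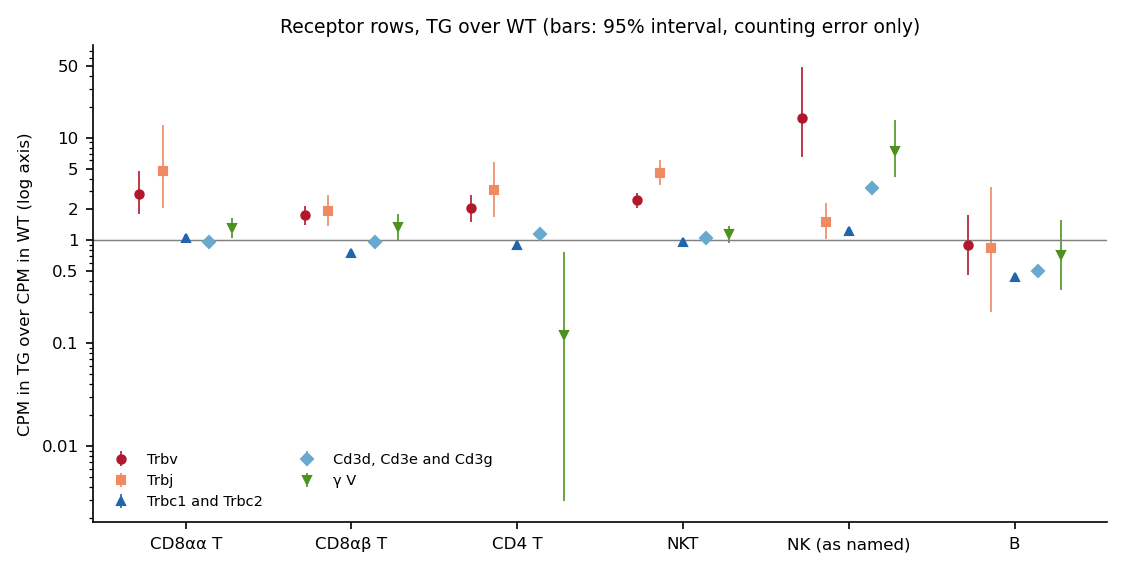
Ratio of CPM in TG to CPM in WT for receptor gene groups by class (log axis); points are ratios and lines are 95% intervals of counting error only, with the grey line at a ratio of 1. Trbv lay at 1.75 to 2.85 and Trbj at 1.94 to 4.71 in the αβ classes, whereas Trbc1 and Trbc2 lay at 0.749 to 1.06. The CD8αα ratios include the cells with a Trdc UMI, 20 of 410 in TG and 82 of 194 in WT.

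The single segments were set beside all genes as a description. Among genes with at least 20 UMIs over both genotypes, a CPM ratio of 2 or more in TG was reached by 3 of 6 V rows in CD8αα cells (5.37% of all genes), 7 of 14 in CD8αβ cells (4.15%), 4 of 4 in CD4 cells (5.41%) and 4 of 10 in NKT cells (4.0%). No V row reached a ratio of 2 in the other direction, which 2.46%, 3.05%, 3.28% and 2.64% of all genes did. The V counts per class were small, and segments with few WT UMIs passed the count minimum mainly through TG, as did all 3 in CD8αα and all 7 in CD8αβ cells, so these counts were partly fixed by the minimum. With a minimum of 50 UMIs the counts were 0 of 2 in CD8αα, 0 of 2 in CD8αβ and 2 of 5 in NKT cells, and no CD4 row was left.

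The counts behind these ratios are given for single segments as a description. In CD8αα cells Trbv13-2 had 23 TG and 1 WT UMIs (ratio 9.55, 1.55 to 393), Trbv16 20 and 1 (8.30, 1.33 to 344) and Trbv3 23 and 3 (3.18, 0.962 to 16.6), whereas Trbv12-2 had 22 and 6 (1.52, 0.599 to 4.59). In CD8αβ cells Trbv17 had 23 and 3 UMIs (4.43, 1.34 to 23.1) and Trbv3 29 and 5 (3.35, 1.28 to 11.1), and Trbv12-2 had 42 and 27 (0.899, 0.542 to 1.52). In NKT cells Trbv2 had 13 and 11 UMIs (4.42, 1.83 to 10.9), Trbv13-3 11 and 10 (4.11, 1.59 to 10.8) and Trbv13-2 51 and 80 (2.38, 1.64 to 3.43). The intervals of any 2 Trbv segments of the same class overlapped, so an order among them was not detectable at this depth.

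The J and constant rows of the receptor pathway were read beside the V rows. Of the genes of V(D)J recombination, Rag1 and Rag2 had no row in the filtered table. Ptcra, the surrogate α chain of thymocytes, had 13 UMIs in 7 of 2114 TG αβ T cells in the filtered table, which held 0 for all WT cells. The library file gave 17 UMIs in 4 of 3979 WT αβ T cells, so no difference can be read from this 0. Traj33, the J segment of MAIT receptors, had 13 UMIs in 12 WT αβ T cells and 0 in TG in the filtered table, where the library file gave 3 TG CD8αβ, 1 TG CD4 and 2 TG NKT cells with a UMI. Tcrg-C2, a γ constant region, had a UMI in 316 of 410 TG and 142 of 194 WT CD8αα cells.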

How the data were processed

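Hepatic CD45+ cells of TG and WT mice were labelled with 49 antibodies and captured on the BD Rhapsody system, with 1 library per genotype (each a pool with a second genotype) and libraries made by random priming on bead cDNA. The authors, per the file headers and methods, used STAR in the BD Rhapsody pipeline on mm10, counted UMIs per gene and per antibody in each cell, and deposited a filtered UMI count table, antibody counts and a cell table with Seurat clusters and class names. The deposited antibody values are the natural log of 1 plus the count over the geometric mean of the 49 antibodies of a cell, which was checked by recomputing 584521 values from the counts (100% agreed within rounding). The authors also deposited the percent of mitochondrial UMIs per cell, which was not analysed further. The normalized RNA values were not used.

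V rows were summed per class and genotype. A cell was assigned to the segment of a chain with most UMIs, and ties were left out. Shares are given with exact Clopper-Pearson intervals, differences of shares with Newcombe intervals, ratios of CPM with exact conditional binomial intervals, all at 95% and covering counting error only. The limit for a count of 0 is 3 counts. Segments were set against all genes with at least 20 UMIs over both genotypes. The 4 αβ classes are CD8αα, CD8αβ, CD4 and NKT cells. Named segments were the 3 with the largest UMI share per chain, class and genotype at 20 or more UMIs, the 5 largest differences of cell shares per chain and class, the leading segment of clusters with at least 20 cells carrying it, all γ and δ rows, and the segments of known invariant or antibody-bound receptors. Leading segments of clusters below that number, the Trbv13-3 cells and Trbv14 were added after their values were seen. The members and lists were chosen with earlier results of these data known. The α chain and the cells without a genotype name were read from the library files, in which 2 of 120822 (TG) and 13 of 189332 (WT) V values of named cells differed from the filtered table. Doublets were not removed, and Scrublet in Scanpy 1.11.5 marked 0.839% of TG and 3.27% of WT cells, which served as an alternative only. Annotation and sequences came from GENCODE gene models on GRCm38. Python 3.11.15, NumPy 2.4.6, SciPy 1.17.1 and pandas 2.3.3 were used, and the code was tested on simulated data. Alternatives changed the source table, the counting of cells, the depth, the count minimum and the antibody threshold.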

Additional observations from a re-analysis of the deposited data

Results flagged for a closer look

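V transcripts were also present in cells of both libraries that the cell table gives no genotype name. They belong to no comparison of TG with WT, and the report used them only for the antibody counts over all called cells and for pairs of segments. In the library with the TG cells these 5379 cells held 181 Trav, 1298 Trbv, 85 Trdv and 1529 γ V UMIs. In the library with the WT cells the 16829 such cells held 874 Trav, 2846 Trbv, 95 Trdv and 1395 γ V UMIs. Trbv15 led the β chain of the unnamed cells in the TG library with 194 of 1298 UMIs (14.9%) in 144 cells, against 3.98% of the Trbv UMIs of the named TG cells, followed by Trbv12-2 with 151, Trbv13-2 with 119 and Trbv17 with 112 UMIs (8.63%, against 5.31% for Trbv17 in named TG cells). In the WT library Trbv12-2 led with 391 of 2846 UMIs (13.7%, against 18.9% in named WT cells), and Trbv2 had 347 (12.2%, against 5.57%). Trbv13-2, which led in NKT cells, had 233 of the 2846 Trbv UMIs there (8.19%), against 110 of the 646 of named WT cells. Among γ rows Trgv2 led in both sets, with 77.0% and 81.5% of γ V UMIs. Whether these differences came from genotype, cell type or filtering was not tested.

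Trav UMIs outside the filtered table were the other signal, and the report used them for the α chain counts and for the Vα2 antibody in Trav14 cells. Named TG cells had 90 and named WT cells 120 Trav UMIs in the library files beyond the 60 and 12 UMIs of the filtered table.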

How the results depend on the processing

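No paired analysis was possible because each genotype was 1 library with no replicate number. For 54 results, 166 alternatives were computed. In 145 the value moved by less than its interval, or a count by less than 1.5 times, and in 21 it moved by more. Settings named for the antibody threshold, for Trbv13-3 in cluster 3 and for the Trbv CPM ratio were chosen after seeing the data. Without the 3 cells with most UMIs, the Trbv16 share in WT CD8αα cells was 0% (from 4.76%), the Trav14 share in TG was 1.61% (from 5.38%) and the leading γ V share in TG γδ T cells was 100% (from 83.3%), also with each cell counted once. The inverse Simpson index was 8.54 in TG CD8αβ cells after rarefaction (from 13.9) and 3.76 in the TG CD4 cells with at least 2 Trbv UMIs (from 9.90). Thinning to 1000 UMIs gave ratios of Trbv detection, TG over WT, of 1.59 in CD8αβ (from 1.97) and 1.85 in CD4 cells (from 2.47). The probability that a Trbv12-2 cell had a higher Vβ5 antibody value than another cell was 0.778 in TG (from 0.677) and 0.489 in WT (from 0.565, so that it crossed even odds) for cells with at least 2 UMIs, of which there were 18 and 7. With at least 50 UMIs, 0 CD8αα, 0 CD8αβ and 2 NKT V rows passed 2-fold (from 3, 7 and 4), since fewer rows were tested, and no CD4 row was left. At antibody values above 2, the Vβ5 difference was 2.17 points in CD8αα cells (from 9.07) and the Vα2 difference 1.03 points in NKT cells (from 3.54). Above the 99th percentile of the B cells of each genotype, the Vβ5 differences were 6.95 points in CD4 and 5.07 in NKT cells. The Vα2 differences were 6.23 in CD8αα and 5.96 in NKT cells. This cut was lower in TG than in WT for both antibodies. The Trbv ratio was 2.33 in CD8αβ cells per Trbc1 and Trbc2 UMI (from 1.75) and 1.93 in NKT cells with at most 1 UMI per cell and segment (from 2.45). Apart from these last settings, whose construction changes the unit or threshold, the cause was not tested. A Trav11 share and a Trav14 share from the filtered table could not be computed, since neither had rows. With 21 Trbv UMIs in WT CD8αα cells and 12 γ V UMIs in TG γδ T cells, shares of these classes were the least precise.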
